A study of Mus musculus with 12 samples.

Results

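The 32 genes described here encode endoplasmic reticulum (ER) chaperones and parts of the unfolded protein response, measured in mouse kidney. They were a list of symbols matched by Ensembl gene identifier to the deposited expression table, and they are 32 of its 21899 genes. The list held 15 chaperones and folding enzymes, 4 genes of ER-associated degradation, 2 of translocation into the ER, 4 encoding sensors or XBP1, and 7 of the ATF4 branch. The rule used symbols and no measured value, but the list was chosen with earlier results of these data known. All 32 passed the filter on low values, which was an FPKM of at least 0.3 in at least 3 of the 12 libraries. FPKM is the number of sequenced fragments per kilobase of exon, scaled to the fragment total of the library.

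Secretory and membrane proteins fold in the ER with the help of chaperones, and proteins that fail to fold are exported and degraded. When unfolded protein accumulates, the sensors ATF6, IRE1 (encoded by Ern1) and PERK (encoded by Eif2ak3) signal to the nucleus. ATF6 and the spliced form of XBP1 raise chaperone and degradation genes, whereas PERK raises translation of ATF4, which acts on amino acid supply, stress and death genes. Kidney tubule cells carry large amounts of membrane transporters and endocytic receptors, all of which are folded in the ER.

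Messenger RNA was sequenced from whole kidney in 4 groups of 3 libraries. Mice of the db/m-veh group, lean heterozygotes for the db allele of the leptin receptor, and of the db/db-veh group, obese and diabetic homozygotes, received vehicle. The db/m-GABP-OE group was of the db/m genotype with overexpression of the transcription factor GABP, and the db/db-GABP-KD group was of the db/db genotype with its knockdown. Each group drew on kidneys of 6 mice, pooled 3 to an extraction, and the p-values therefore measure only the spread between libraries, which may share animals or be technical. How GABP was altered, the age and sex of the mice and the kind of vehicle were not given in the sources used here.

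Gabpa, the DNA-binding subunit of GABP, had FPKM of 1.79, 2.32 and 2.54 in db/m-veh, 2.20, 2.17 and 1.63 in db/db-veh, 3.45, 3.35 and 3.71 in db/m-GABP-OE, and 6.62, 2.66 and 3.40 in db/db-GABP-KD. As deposited, all 3 libraries labelled GABP-KD were thus above the 3 db/db-veh libraries in Gabpa, the opposite of the label. After the scaling described below, Gabpa in db/m-GABP-OE (2.73, 2.57 and 2.79) overlapped with db/m-veh (1.83, 2.81 and 2.34). Its higher level with overexpression was thus seen without overlap only as deposited. The scaled values were 2.38, 4.10 and 2.02 in db/db-veh and 3.86, 3.00 and 3.71 in the libraries labelled GABP-KD, which overlapped. Gabpa was therefore not seen to be lower in the libraries labelled GABP-KD on either scale. The partner subunit gene Gabpb1 overlapped as deposited, with 1.39, 0.619 and 1.46 against 4.26, 1.02 and 1.14. Every direction given below for that group is a direction for the libraries labelled GABP-KD. The libraries held 6.78 to 9.70 M fragments (M, 1e+06), of which genes encoded by the mitochondrial genome took from 48.0% in db/db-GABP-KD 1 to 86.0% in db/db-veh 2. That left 1.08 to 4.39 M nuclear fragments, so nuclear genes as a whole had different FPKM levels between libraries. Over the 12897 genes tested, the median log2 fold change was -0.24 in the diabetes comparison (db/db-veh over db/m-veh). It was 0.38 in the overexpression comparison (db/m-GABP-OE over db/m-veh) and 0.42 for the libraries labelled GABP-KD over db/db-veh. Results are therefore given as deposited and after scaling by the median of ratios, a factor per library from 0.53 to 1.72 that brought those medians to 0.01, 0.04 and 0.00. The least typical library was db/db-GABP-KD 1, whose correlation with the other 11 across genes averaged 0.868. Proximal tubule marker genes (9 in all, such as Slc34a1 and Lrp2) summed to FPKM between 208.9 and 1130 and were present in all 12 libraries.

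ATF6 acts through a promoter sequence, the ER stress response element, known from chaperone genes, and the matches found among the 32 genes are shown for that reason. The element was searched as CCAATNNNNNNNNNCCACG on both strands of the 250 bases before the start of each gene in RefSeq promoters (GRCm38.p6), which held 29 of the 32 genes. Atf6, Hyou1 and Manf had no entry. A match was present in 8 of these 29 promoters, 7 of them among 13 chaperone genes and 1 in Syvn1, against 0.113% of all 32851 promoters in the table. The other 6 chaperone promoters had none, nor did the promoters of the 7 ATF4 branch genes, the 2 translocation genes and the 3 sensor or XBP1 genes with an entry. The matches are printed in the orientation of the element, with its fixed letters in capitals.
Hspa5: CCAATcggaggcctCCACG
Calr: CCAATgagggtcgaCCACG
Hsp90b1, far match: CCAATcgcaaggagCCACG
Hsp90b1, near match: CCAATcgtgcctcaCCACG
Canx: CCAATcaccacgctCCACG
Pdia6: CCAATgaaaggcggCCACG
Dnajc3: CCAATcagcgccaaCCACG
Creld2: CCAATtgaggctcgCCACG
Syvn1: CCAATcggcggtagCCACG

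The Hspa5 promoter is printed whole because its product, the chaperone BiP, is the standard readout of the response. It lies at chr2:34771840-34772089 on the forward strand, and the match in capitals runs from 65 to 47 bases before the start.
Hspa5 promoter: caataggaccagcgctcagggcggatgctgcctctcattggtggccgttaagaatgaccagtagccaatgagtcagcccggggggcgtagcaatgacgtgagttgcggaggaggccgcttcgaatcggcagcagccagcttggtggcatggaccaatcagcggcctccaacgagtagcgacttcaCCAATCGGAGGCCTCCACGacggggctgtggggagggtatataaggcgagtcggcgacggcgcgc

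The Herpud1 promoter, at chr8:94386179-94386428 on the forward strand, is shown because it alone among the 29 matched both a chaperone-type and an ATF4-type element. In capitals are a match to ERSE-II (ATTGGNCCACG, in 0.0304% of all promoters) from 52 to 42 bases before the start and, on the other strand, a match to the C/EBP-ATF element (TGATGNAA, in 3.45% of all promoters) from 112 to 105 bases before it.
Herpud1 promoter: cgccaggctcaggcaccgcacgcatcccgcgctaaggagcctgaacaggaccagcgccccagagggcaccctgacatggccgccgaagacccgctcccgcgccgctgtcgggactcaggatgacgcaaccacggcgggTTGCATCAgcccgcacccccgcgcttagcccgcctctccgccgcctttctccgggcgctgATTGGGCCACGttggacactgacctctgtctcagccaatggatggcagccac

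The Asns promoter, at chr6:7693210-7693459 on the reverse strand, is shown as an ATF4 branch promoter. Its C/EBP-ATF match, in capitals, runs from 23 to 16 bases before the start, and Chac1 was the only other of the 7 ATF4 branch genes with this motif.
Asns promoter: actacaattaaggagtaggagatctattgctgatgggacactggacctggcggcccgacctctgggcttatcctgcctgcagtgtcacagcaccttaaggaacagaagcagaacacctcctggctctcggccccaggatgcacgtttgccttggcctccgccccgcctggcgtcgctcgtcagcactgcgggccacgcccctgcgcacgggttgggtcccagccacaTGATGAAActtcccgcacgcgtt

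The Sdf2l1 promoter, at chr16:17132384-17132633 on the reverse strand, is shown because the gene had the largest difference of the 32 in any comparison and no match to any motif searched.
Sdf2l1 promoter: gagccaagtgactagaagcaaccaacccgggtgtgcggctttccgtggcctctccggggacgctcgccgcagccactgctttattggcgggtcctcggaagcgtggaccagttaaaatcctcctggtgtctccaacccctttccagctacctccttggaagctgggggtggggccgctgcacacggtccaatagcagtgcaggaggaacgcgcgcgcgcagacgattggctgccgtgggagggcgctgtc

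The other motifs searched were TGACGTGG, the letters bound by XBP1 and ATF6 in some promoters, found in 0 of the 29 and in 0.563% of all, and CCGGAAGT, the letters typical of GABP, found in Ddit3 and P4hb and in 2.88% of all. A match describes letters only.

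The chaperones ranged from place 1 (Calr) to place 24 (Sdf2l1) of the 32 by abundance in kidney. Dnajb9 (mean FPKM 7.44), Dnajc3 (7.24), Manf (5.27), Hyou1 (4.98) and Sdf2l1 (4.43) lay between places 17 and 24. By mean FPKM over the 12 libraries, a length-corrected level, the order began with Calr (85.9), P4hb (64.1), Pdia3 (54.9) and Hspa5 (45.1), followed by Atf4 (36.3) and Herpud1 (35.7). The place of Atf4 rested on db/db-GABP-KD 1, without which its mean was 25.3 and that of Herpud1 30.5. Calreticulin and calnexin (Canx, 15.5) hold glycoproteins during folding, and P4hb, Pdia3, Pdia4 (17.1) and Pdia6 (13.6) encode protein disulfide isomerases. The sensors were far less abundant, with Eif2ak3 at 1.83, Atf6 at 0.971 and Ern1 at 0.745. Among the ATF4 branch genes, Asns at 0.787 lay just above Ern1, and Trib3 at 0.477 and Chac1 at 0.350 were the lowest of the 32.

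**Figure D1:**
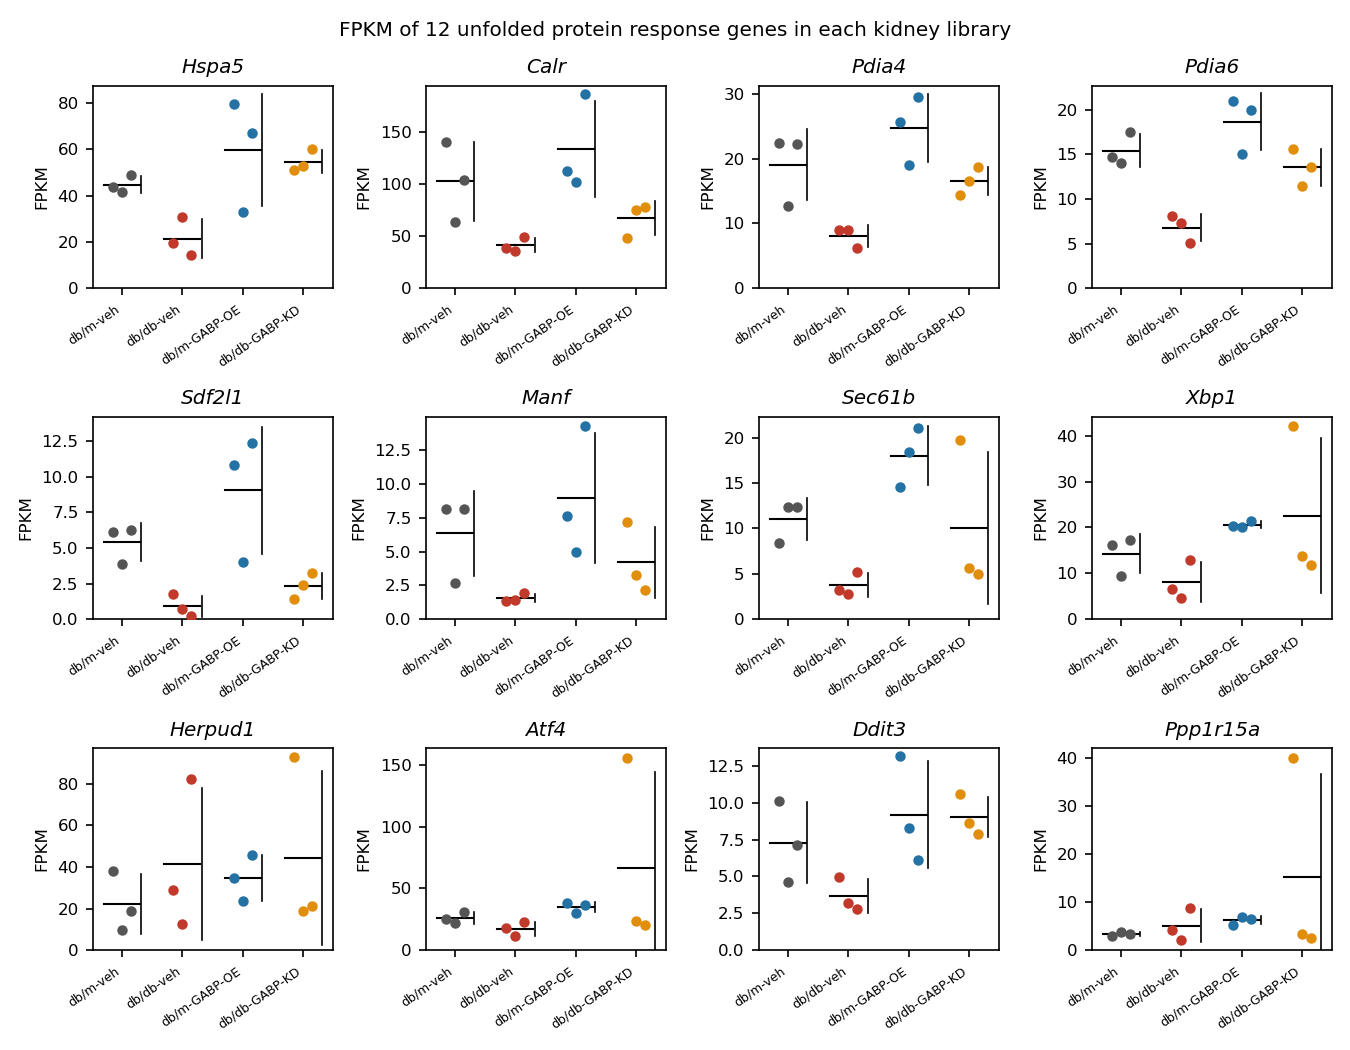
FPKM (vertical axes, linear from 0) of 12 of the genes in each of the 3 libraries of each group. Points are libraries in replicate order, horizontal lines are group means and vertical lines are 1 SD either side, drawn no lower than 0. For Hspa5, Calr, Pdia4, Pdia6, Sdf2l1, Manf and Sec61b the 3 db/db-veh points lie below the 3 db/m-veh points, and for Atf4 and Ppp1r15a the single high point is db/db-GABP-KD 1 (156 and 40.2 FPKM).

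Across the 4 groups together, 3 of the 32 genes differed in limma's moderated F test, namely Sdf2l1, Sec61b and Manf. That is 3 of 32 beside 7.42% of all genes tested, so the share was near that of genes in general. Sdf2l1 encodes a partner of the ER co-chaperones that assists BiP. Its FPKM was 6.12, 3.84 and 6.28 in db/m-veh, 1.73, 0.703 and 0.235 in db/db-veh, 10.8, 4.0 and 12.4 in db/m-GABP-OE, and 1.39, 2.42 and 3.21 in db/db-GABP-KD. Both db/db groups lay wholly below both db/m groups (adjusted p of the F test = 0.00549). The db/db-veh values rested on 13, 6 and 2 fragments, against 62, 29 and 65 in db/m-veh, so their precision is low.

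Sec61b encodes a subunit of the SEC61 channel, through which nascent chains enter the ER. Its FPKM was 8.35, 12.4 and 12.4 in db/m-veh, 3.25, 2.76 and 5.22 in db/db-veh, 14.6, 18.4 and 21.1 in db/m-GABP-OE, and 19.8, 5.59 and 4.92 in db/db-GABP-KD (adjusted p = 0.0360). The db/m-GABP-OE libraries lay above and the db/db-veh libraries below all db/m-veh libraries, while db/db-GABP-KD 1 stood far from the other two of its group. Manf encodes a secreted ER protein that is released under stress. Its FPKM was 8.16, 2.71 and 8.17 in db/m-veh, 1.34, 1.40 and 1.92 in db/db-veh, 7.60, 5.0 and 14.3 in db/m-GABP-OE, and 7.16, 3.24 and 2.18 in db/db-GABP-KD (adjusted p = 0.0436). The db/db-veh libraries were the lowest 3 of the 12. Exons of Manf overlap those of Dcaf1 and Rbm15b, and with no strand setting given their reads may not be separable.

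None of the 3 passed after median of ratios scaling (adjusted p 0.0559 for Sdf2l1, 0.0860 for Sec61b and 0.139 for Manf). Without db/db-GABP-KD 1 the number that passed as deposited was 11, adding Ssr1, Pdia4, Pdia6, Edem1, Calr, Hspa5, Pdia3 and Dnajc3, beside 17.6% of all genes. With scaling as well it was 2, Sec61b (adjusted p = 0.0276) and Sdf2l1 (0.0294), beside 3.5% of all genes. Leaving out any 1 of db/db-veh 1, db/db-veh 2, db/m-veh 3 or the 3 db/m-GABP-OE libraries left Sdf2l1 as the single call. In these settings 2.17% to 5.88% of all genes passed, so a single call was near the share of genes in general.

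The order of the group means was much alike among the genes. The db/db-veh group had the lowest mean FPKM of the 4 in 29 of the 32, the exceptions being Herpud1, Ppp1r15a and Sesn2, whereas 63.9% of all genes tested had their lowest mean there. After scaling it was the lowest in 20 of the 32, beside 25.9% of all genes. The highest mean was in db/m-GABP-OE for 18 genes and in db/db-GABP-KD for 12 as deposited, near the background, since 57.7% and 34.2% of all genes had theirs there. After scaling these counts were 6 and 14, beside 29.3% and 26.3% of all genes.

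In diabetic against lean kidney, both under vehicle, none of the 32 genes passed the test after adjustment over all genes (0.093% of all genes passed, 12 in number). At an unadjusted p under 0.05, 12 of the 32 were lower and none higher, beside 10.7% of all genes that were lower at that level. Of the 12, 9 were chaperones or folding enzymes, 1 was Sec61b and 2, Asns and Ddit3, were of the ATF4 branch. After scaling 7 of the 32 were lower at that level, 5 of them chaperones, and none higher, beside 7.09% of all genes that were lower. With an equal sum of nuclear FPKM in each library 4 were lower, 2 of them chaperones, and 1 was higher, beside 2.82% and 12.9% of all genes. The median log2 fold change was -0.93 over the 15 chaperones, -0.46 over the 4 degradation genes, -1.03 over the 2 translocation genes, -0.11 over the 4 sensor genes and -0.36 over the 7 ATF4 branch genes, beside -0.24 over all genes tested. Scaling brought these medians to -0.55, -0.15, -0.70, 0.14 and -0.27, beside 0.01.

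Hspa5 had FPKM of 43.7, 41.7 and 48.7 in db/m-veh and 19.5, 30.5 and 14.2 in db/db-veh. Every db/db-veh library lay below every db/m-veh library, but the distance did not pass the adjusted test (log2 fold change -1.11, SE 0.42, adjusted p = 0.317). Calr had 139.8, 63.6 and 103.3 FPKM in db/m-veh against 38.5, 36.0 and 48.6 in db/db-veh, also without overlap (log2 fold change -1.25, SE 0.42, adjusted p = 0.271).

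The disulfide isomerase Pdia4 had 22.4, 12.7 and 22.3 FPKM in db/m-veh and 8.97, 9.03 and 6.19 in diabetic kidney (log2 fold change -1.17, SE 0.37, adjusted p = 0.255). For Pdia6 the values were 14.7, 14.0 and 17.6 against 8.03, 7.28 and 5.04 (log2 fold change -1.15, SE 0.35, adjusted p = 0.248). Hyou1, a large nucleotide exchange factor for BiP, had 8.76, 3.76 and 6.77 against 2.18, 2.73 and 2.29 (log2 fold change -1.19, SE 0.39, adjusted p = 0.259). In none of these 3 did the groups overlap. For Sdf2l1, whose values are given above, the log2 fold change was -2.21 (SE 0.46, adjusted p = 0.0980), for Manf it was -1.61 (SE 0.48, adjusted p = 0.245) and for Sec61b it was -1.46 (SE 0.46, adjusted p = 0.255).

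Among the other chaperones the groups did not overlap for Pdia3, which had 81.0, 38.4 and 50.04 FPKM in db/m-veh and 27.4, 29.8 and 26.7 in db/db-veh. The same held for P4hb (means 57.1 ± 14.4 and 36.2 ± 2.30, SD, n = 3 each) and for Dnajb11, a BiP co-chaperone (8.79 ± 1.65 and 4.83 ± 1.04). The groups overlapped for Hsp90b1, the ER form of HSP90 (17.0 ± 1.66 and 11.2 ± 4.36), for Canx (14.3 ± 3.35 and 10.9 ± 2.71) and for Creld2 (17.5 ± 9.29 and 8.85 ± 2.28). They also overlapped for the co-chaperones Dnajb9 (5.08 ± 1.89 and 3.92 ± 0.144) and Dnajc3 (5.05 ± 0.990 and 4.29 ± 0.361).

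In all, 14 of the 32 genes were lower in db/db-veh with no overlap, 10 of them chaperones, beside 14.4% of all genes. After scaling 8 remained without overlap, beside 9.03% of all genes. These were Calr, Pdia6, Sdf2l1, Dnajb11, Manf, Edem1, Sec61b and Asns. The library db/db-veh 2, with the smallest nuclear share, had a scaled Hspa5 value of 57.7, above the db/m-veh libraries at 44.6, 50.5 and 44.9, while db/db-veh 1 and 3 had 21.1 and 17.7. Scaled Pdia4 likewise was 17.1 in db/db-veh 2 and 9.71 and 7.68 in replicates 1 and 3, against 22.8, 15.4 and 20.5 in db/m-veh. The red blood cell marker genes (6 in all) summed to FPKM of 582.1 to 1187 in db/m-veh and 134.2 to 330.9 in db/db-veh. The macrophage genes (8) summed to 28.6 to 32.9 and 13.3 to 26.6, also without overlap. Marker sums here and below are as deposited and were not scaled, so differences in the nuclear share of the libraries remain in them. The pancreas and salivary genes (7, with Prss1 and Amy2a5 at 0 in all libraries) summed to 7.43 to 10.2 and 6.95 to 22.1. The proximal tubule, plasma and B cell, and adipose sums overlapped. Their part in the chaperone values was not tested. Without db/db-veh 2 the chaperone median as deposited was -0.98 with 9 of 15 lower at an unadjusted p under 0.05, beside a median of -0.09 over all genes and 4.92% of them lower at that level.

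None of the sensor genes or Xbp1 was among the 12. Xbp1, the transcription factor spliced by IRE1, had 16.2, 9.49 and 17.2 FPKM in db/m-veh and 6.63, 4.56 and 12.9 in db/db-veh, with overlap (log2 fold change -0.87, SE 0.49, adjusted p = 0.521). The means in db/m-veh and db/db-veh were 0.724 ± 0.126 and 0.710 ± 0.282 FPKM for Atf6, 0.590 ± 0.232 and 0.495 ± 0.0387 for Ern1, and 1.54 ± 0.650 and 1.43 ± 0.891 for Eif2ak3. FPKM per gene does not separate spliced from unspliced Xbp1.

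The degradation and ATF4 branch genes lay on both sides of 0. Herpud1, a scaffold of the degradation complex, had 38.2, 9.56 and 19.0 FPKM in db/m-veh and 29.0, 12.4 and 82.4 in db/db-veh, the highest of them in db/db-veh 3. Edem1, which takes misfolded glycoproteins to degradation, had 2.68, 1.82 and 2.19 against 1.42, 0.784 and 1.57, without overlap. Sel1l (4.26 ± 1.90 and 3.34 ± 0.871) and Syvn1 (8.16 ± 7.06 and 3.10 ± 1.79), adaptor and ubiquitin ligase of the same complex, overlapped.

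Atf4 had 25.2, 22.0 and 31.1 FPKM in lean and 17.6, 11.1 and 22.5 in diabetic kidney (log2 fold change -0.64, SE 0.59, adjusted p = 0.732). Ddit3, which encodes the death-promoting factor CHOP, had 10.2, 4.63 and 7.13 against 4.99, 3.18 and 2.81 (log2 fold change -0.88, SE 0.39, adjusted p = 0.398), with overlap between 4.63 and 4.99. Asns, asparagine synthetase, had 0.920, 1.99 and 0.666 against 0.162, 0.190 and 0.381, without overlap (log2 fold change -1.12, SE 0.39, adjusted p = 0.277). Its db/db-veh values rested on 3, 4 and 8 fragments.

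Ppp1r15a, the phosphatase subunit that reverses PERK signalling, had 2.94, 3.797 and 3.46 FPKM against 4.22, 2.08 and 8.82. Sesn2, a stress-induced regulator of metabolism, had 13.1, 2.75 and 6.56 against 5.90, 2.47 and 14.4. For both, as for Herpud1, db/db-veh 3 was the highest library of the 6. Trib3, a pseudokinase target of ATF4, had 15, 2 and 9 fragments in db/m-veh and 7, 0 and 4 in db/db-veh. Chac1, which degrades glutathione, had 10, 4 and 3 against 2, 2 and 3, and a difference in these 2 genes was not detectable at this depth.

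**Figure D2:**
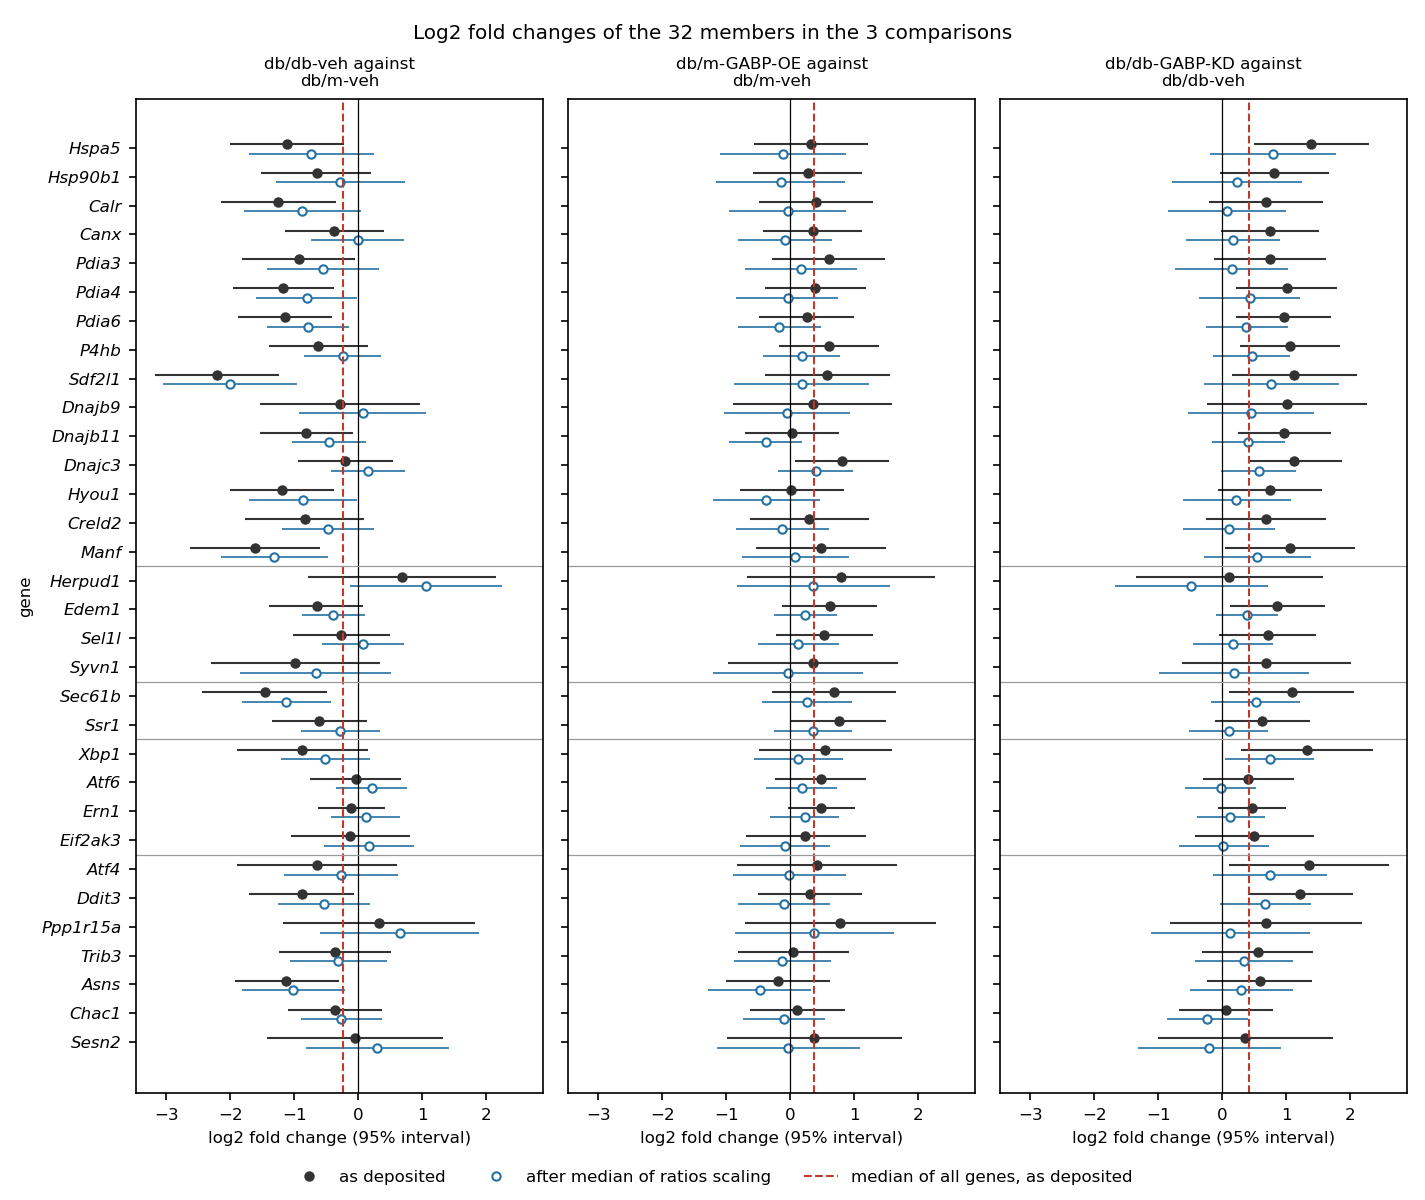
Log2 fold change of FPKM + 0.5 (horizontal axes, with 95% intervals) for the 32 genes in the 3 comparisons. Filled points are as deposited, open points are after median of ratios scaling, and the dashed line is the median of all genes as deposited. In the first panel Sdf2l1 lies farthest to the left (-2.21 and -2.0), and in the second panel the open points scatter around 0.

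In lean kidney with GABP overexpression against lean kidney under vehicle, none of the 32 genes passed the adjusted test, although 1.9% of all genes did (245 in number). At an unadjusted p under 0.05, 2 were higher, Dnajc3 and Ssr1, beside 14.5% of all genes. The median log2 fold change was 0.35 over the chaperones, 0.58 over the degradation genes, 0.72 over the translocation genes, 0.48 over the sensor genes and 0.31 over the ATF4 branch, beside 0.38 over all genes. After scaling these medians were -0.05, 0.19, 0.31, 0.16 and -0.09, beside 0.04, and no gene of the 32 had an unadjusted p under 0.05. As deposited, no gene was at that level without db/m-GABP-OE 1, db/m-GABP-OE 3 or db/m-veh 2, 4 were without db/db-GABP-KD 1, and 1 to 3 were without any other single library, beside 10.1% to 19.7% of all genes higher in these settings. This comparison shares the db/m-veh libraries with the one above.

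Dnajc3, which encodes the co-chaperone P58IPK, had 4.08, 4.995 and 6.06 FPKM in db/m-veh and 8.25, 7.88 and 11.7 in db/m-GABP-OE, without overlap (log2 fold change 0.81, SE 0.35, adjusted p = 0.280). Ssr1, a subunit of the translocon-associated complex, had 3.48, 2.86 and 4.23 against 5.24, 6.62 and 6.95 (log2 fold change 0.76, SE 0.35, adjusted p = 0.325). Ssr1 was the only one of 9 genes without overlap that kept the separation after scaling. The share of all genes higher without overlap was 30.4% as deposited and 9.72% after scaling, so 9 of 32 and 1 of 32 were no more than the shares of all genes.

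Ern1 had 0.629, 0.341 and 0.799 FPKM in db/m-veh and 0.948, 1.25 and 0.855 in db/m-GABP-OE (log2 fold change 0.49, SE 0.25, adjusted p = 0.365). Edem1 had 3.96, 3.66 and 3.37 in db/m-GABP-OE (log2 fold change 0.62, SE 0.35, adjusted p = 0.419), above the db/m-veh values given earlier. P4hb had 51.6, 46.2 and 73.4 FPKM against 75.6, 86.7 and 96.5 (log2 fold change 0.61, SE 0.37, adjusted p = 0.448). Of Sec61b, whose groups did not overlap, the log2 fold change was 0.69 (SE 0.46, adjusted p = 0.493).

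The groups overlapped for Sel1l (6.13 ± 1.19 in db/m-GABP-OE, log2 fold change 0.53, SE 0.36, adjusted p = 0.493) and Pdia3 (64.8, 63.0 and 135.4 FPKM, log2 fold change 0.61, SE 0.42, adjusted p = 0.502). Hspa5 varied widely, with 79.3, 32.9 and 67.0 FPKM (log2 fold change 0.32, SE 0.42, adjusted p = 0.691). Xbp1 had 20.3, 19.99 and 21.5, above the 3 db/m-veh libraries (log2 fold change 0.55, SE 0.49, adjusted p = 0.578). Atf4 had 38.4, 30.2 and 36.3 (log2 fold change 0.42, SE 0.59, adjusted p = 0.711) and Ddit3 13.2, 8.30 and 6.12 (log2 fold change 0.31, SE 0.39, adjusted p = 0.680), each with overlap. The signs for Hspa5, Atf4 and Ddit3 turned under scaling, to -0.11, -0.01 and -0.10.

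Values of the other members in db/m-GABP-OE, none of which passed the test, complete the comparison. Calr had 112, 102 and 186 FPKM, and the means were 24.8 ± 5.30 for Pdia4, 18.7 ± 3.18 for Pdia6, 21.3 ± 6.91 for Hsp90b1, 18.2 ± 3.36 for Canx, 20.4 ± 6.84 for Creld2 and 6.72 ± 3.37 for Hyou1 (SD, n = 3). The co-chaperones Dnajb9 (6.49 ± 1.65) and Dnajb11 (9.13 ± 2.37) overlapped with db/m-veh, as did Herpud1 (34.8 ± 11) and Syvn1 (7.99 ± 2.78). Of the stress genes, Ppp1r15a had 5.28, 6.95 and 6.46 FPKM without overlap, and Atf6 (1.22 ± 0.289) did not overlap either, while Eif2ak3 (1.83 ± 0.111) and Sesn2 (8.31 ± 0.593) overlapped. Asns (1.03 ± 0.805), Trib3 (0.472 ± 0.254) and Chac1 (0.464 ± 0.146) were at low levels.

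As deposited, summed markers of some other cells were also higher in these libraries, and those of others were not. The sums were not scaled, and all genes tested had a median log2 fold change of 0.38 in this comparison. The 8 macrophage genes summed to FPKM of 28.6 to 32.9 in db/m-veh and 126.7 to 235.1 in db/m-GABP-OE, with 3 of 8 called. The plasma cell and B cell genes (8 found, 5 tested) summed to 3.30 to 8.78 and 39.1 to 69.6, nearly all of it Jchain, 1 called gene at 34.1, 61.1 and 39.9 FPKM, while Mzb1 had 1.37, 0.339 and 1.44. The 7 adipose genes summed to 4.16 to 11.7 and 18.2 to 30.5. By contrast, the red blood cell genes summed to 582.1 to 1187 and 301.3 to 944.1, and the pancreas and salivary genes to 7.43 to 10.2 and 5.68 to 12.3, each with overlap. The part of these cells in the values of the 32 genes was not tested, and in bulk tissue a change in the share of a cell type and in RNA per cell cannot be told apart.

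In the db/db libraries labelled GABP-KD against db/db-veh, none of the 32 genes passed, and neither did any other gene (0.0% of all genes, with 1839 genes at an unadjusted p under 0.05 in limma, and 0 genes called by voom on recovered fragments). At an unadjusted p under 0.05, 13 of the 32 were higher and none lower, beside 13.7% of all genes. The 13 held 8 chaperones, Edem1, Sec61b, Xbp1, Atf4 and Ddit3. All 32 fold changes were above 0, as were those of 11145 of all 12897 genes tested. Of the 32, 28 were above the median of all genes, 0.42. The branch medians were 0.97 for chaperones, 0.70 for degradation, 0.86 for translocation, 0.48 for sensors and XBP1 and 0.59 for the ATF4 branch. After scaling they were 0.41, 0.18, 0.31, 0.08 and 0.30, and 1 gene, Xbp1, kept an unadjusted p under 0.05, beside 2.88% of all genes higher at that level. Leaving out db/db-veh 2 made the count as deposited 8 instead of 13, beside 5.47% of all genes. Leaving out db/db-veh 3 made it 10, with 5 chaperones instead of 8, beside 12.5%. Scaled and without db/db-GABP-KD 1, 6 genes were higher at that level, 5 of them chaperones, and 1 was lower, beside 5.33% and 3.29% of all genes. The comparison uses the same db/db-veh libraries as the first, so a low value there lowers one fold change and raises the other. The macrophage genes summed to FPKM of 17.8, 71.3 and 86.3 in the libraries labelled GABP-KD and 26.6, 13.3 and 14.8 in db/db-veh, and the red blood cell genes to 266.2, 32.9 and 51.1 against 323.4, 134.2 and 331.0. As deposited, both lists thus stood apart from db/db-veh in replicates 2 and 3 but not in replicate 1. The sums were not scaled, and the scaling factor was 1.72 in db/db-GABP-KD 1 against 0.889 and 0.917 in replicates 2 and 3. Whether the contrast with replicate 1 holds after scaling is therefore not shown. The part of both lists in the values of the 32 genes was not tested.

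Hspa5 had 51.1, 52.6 and 60.2 FPKM in the libraries labelled GABP-KD, all above db/db-veh at 19.5, 30.5 and 14.2 (log2 fold change 1.39, SE 0.42, adjusted p = 0.337), and also all above the 3 db/m-veh libraries. Dnajc3 had 14.5, 7.50 and 9.10 against 4.45, 4.54 and 3.88 (log2 fold change 1.13, SE 0.35, adjusted p = 0.337). P4hb had 90.1, 65.6 and 74.2 against 38.1, 33.7 and 37.0 (log2 fold change 1.06, SE 0.37, adjusted p = 0.345). In these 3 chaperone genes there was no overlap as deposited, and there was overlap in each after scaling.

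Dnajb11 had 11.1, 8.71 and 9.76 against 5.88, 3.81 and 4.79 (log2 fold change 0.97, SE 0.35, adjusted p = 0.345). Pdia6 had 15.6, 11.4 and 13.6 FPKM (log2 fold change 0.96, SE 0.35, adjusted p = 0.345) and Pdia4 had 14.4, 16.6 and 18.7 (log2 fold change 1.01, SE 0.37, adjusted p = 0.345), all above db/db-veh. The Pdia4 values lay within the range of db/m-veh, and for Pdia6 the highest did and the others lay below it. For Calr the libraries labelled GABP-KD had 48.3, 74.8 and 77.8 FPKM, and the lowest of them lay inside the db/db-veh range.

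Ddit3 had 10.6, 8.64 and 7.89 FPKM against 4.99, 3.18 and 2.81 (log2 fold change 1.22, SE 0.39, adjusted p = 0.337). It was the only one of the 32 higher without overlap both as deposited and after scaling, where the shares of all genes were 17.3% and 4.63%, and 15 of the 32 were so as deposited. Exons of Ddit3 overlap those of Mars on the other strand and those of another Ddit3 identifier on the same strand, whose values are not shown. Reads of these genes may not be separable. Xbp1 had 42.2, 13.7 and 11.9 against 6.63, 4.56 and 12.9 (log2 fold change 1.32, SE 0.49, adjusted p = 0.345), with db/db-GABP-KD 1 far above the rest.

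The same library had the highest values of several stress genes. Atf4 had 156 FPKM in db/db-GABP-KD 1, and 23.5 and 20.8 in the other 2 of that group (log2 fold change 1.35, SE 0.59, adjusted p = 0.345). Ppp1r15a had 40.2, 3.33 and 2.57, and Dnajb9 had 34.7, 3.93 and 4.13, against 3.51 to 7.95 for Dnajb9 in all other libraries. Herpud1 had 92.7, 19.0 and 21.3 and Sesn2 had 23.0, 5.23 and 3.97. After scaling Herpud1 (102.3 against 54.1) and the sensor gene Eif2ak3 (3.03 against 2.97) were highest in db/db-veh 3 instead.

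Trib3 had 32, 3 and 4 fragments and Chac1 14, 0 and 0, where a count of 0 allows up to 3. Eif2ak3 had 5.09, 1.33 and 1.13 FPKM and Atf6 had 2.36, 0.606 and 0.740. So of the 7 ATF4 branch genes, Atf4, Ppp1r15a, Trib3, Chac1 and Sesn2 had their highest deposited value of the 12 libraries in db/db-GABP-KD 1, as did 39.9% of all genes tested. After scaling this held for Atf4, Ppp1r15a and Trib3, beside 16.5% of all genes, while Chac1 was highest in db/m-veh 1 (0.682 against 0.590) and Sesn2 in db/db-veh 3 (17.8 against 13.4). As deposited, the other libraries of that group were within or below the range of the 6 vehicle libraries. Without db/db-GABP-KD 1 the median over the 32 genes was 0.53, beside 0.22 over all genes, and over the chaperones it was 0.88, with 9 of 15 higher at an unadjusted p under 0.05, beside 8.85% of all genes.

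The remaining members in the libraries labelled GABP-KD had means of 19.4 ± 5.15 for Hsp90b1, 18.5 ± 2.25 for Canx, 47.5 ± 3.71 for Pdia3, 4.35 ± 0.312 for Hyou1 and 14.8 ± 5.18 for Creld2 (SD, n = 3). All of these but Hsp90b1 lay above db/db-veh without overlap. Sel1l (5.78 ± 1.35) and Ern1 (0.877 ± 0.102) did so too, while Syvn1 (5.12 ± 2.79), Edem1 (2.86 ± 1.62), Ssr1 (3.85 ± 2.08) and Asns (0.683 ± 0.502) varied within the group, though Edem1 did not overlap.

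**Figure D3:**
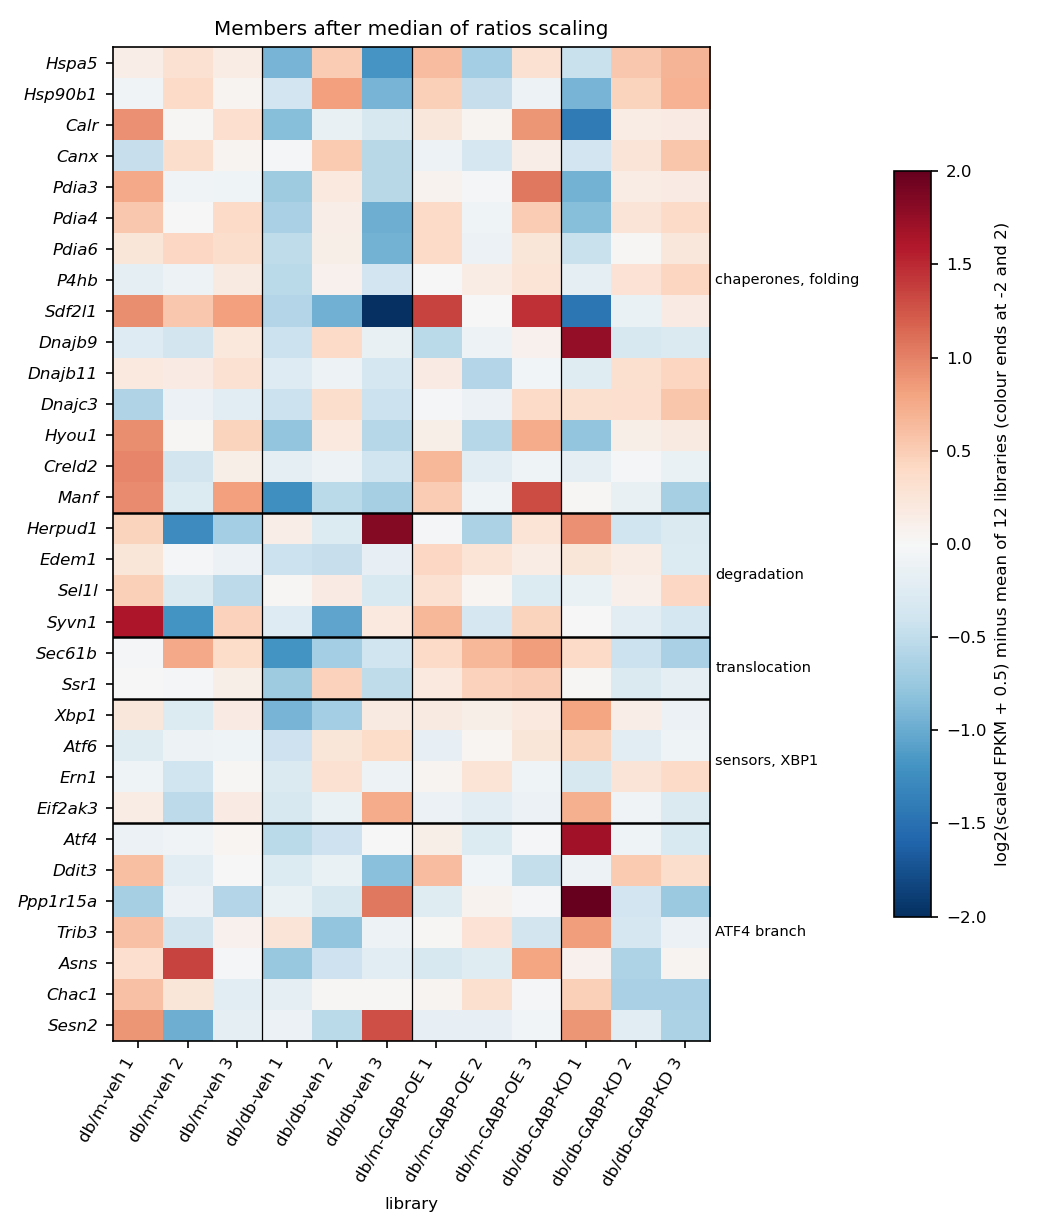
The 32 genes (rows, by branch) in the 12 libraries (columns) after median of ratios scaling, as log2(scaled FPKM + 0.5) minus the mean of the gene over the 12 libraries, with the colour scale ending at -2 and 2. In db/db-GABP-KD 1 the chaperone rows Calr, Pdia3, Hsp90b1 and Sdf2l1 are blue while Dnajb9, Atf4 and Ppp1r15a are red, and in db/db-veh 3 Hspa5, Pdia4 and Sdf2l1 are blue while Herpud1, Ppp1r15a and Sesn2 are red.

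In 2 libraries some genes were at the low end and others at the high end of the 12 after scaling. In db/db-GABP-KD 1 the chaperone level, as the mean log2(scaled FPKM + 0.5), was 3.43, the third lowest, and the ATF4 branch level was 2.66, the highest. In db/db-veh 3 the chaperone level was 3.13, the lowest, and the ATF4 branch level was 1.98, the third highest. By gene, db/db-GABP-KD 1 had the lowest of the 12 values for Calr (28.1), Pdia3 (25.3) and Hsp90b1 (8.25) and the highest for Atf4 (91.1), Ppp1r15a (23.4) and the co-chaperone gene Dnajb9 (20.3). In db/db-veh 3, scaled values were the lowest of the 12 for 6 of the 15 chaperones, whereas the degradation gene Herpud1 (102.3) and, of the ATF4 branch, Sesn2 alone (17.8) were the highest there. For comparison, 22.5% of all genes tested had their lowest scaled value in db/db-GABP-KD 1, so that 3 of 15 chaperones is near the background, and 7.7% had it in db/db-veh 3. The 2 libraries also deviated together from their group means across all genes tested (r = 0.511, genes not being independent replicates).

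The branches were also set against each other within each library, where scaling has an effect only through the pseudocount. The mean log2(FPKM + 0.5) of the 15 chaperones minus that of the 7 ATF4 branch genes was 2.04, 2.05 and 2.44 in db/m-veh, 1.68, 2.20 and 1.09 in db/db-veh, 2.38, 1.89 and 2.63 in db/m-GABP-OE, and 0.84, 2.37 and 2.52 in db/db-GABP-KD. The group means were 2.18 ± 0.23, 1.66 ± 0.56, 2.30 ± 0.38 and 1.91 ± 0.93 (SD, n = 3), and the groups overlapped. The lowest 2 libraries were db/db-GABP-KD 1 and db/db-veh 3. After scaling the difference was 0.76 and 1.15 in these and 1.71 to 2.56 in the other 10, with db/db-veh 2 at 2.49 instead of 2.20. The chaperone level alone was 3.16, 3.09 and 2.85 in db/db-veh and 3.63 to 4.71 in the other 9 libraries, and after scaling it was 3.27, 3.93 and 3.13 in db/db-veh against 3.43 to 4.31.

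**Figure D4:**
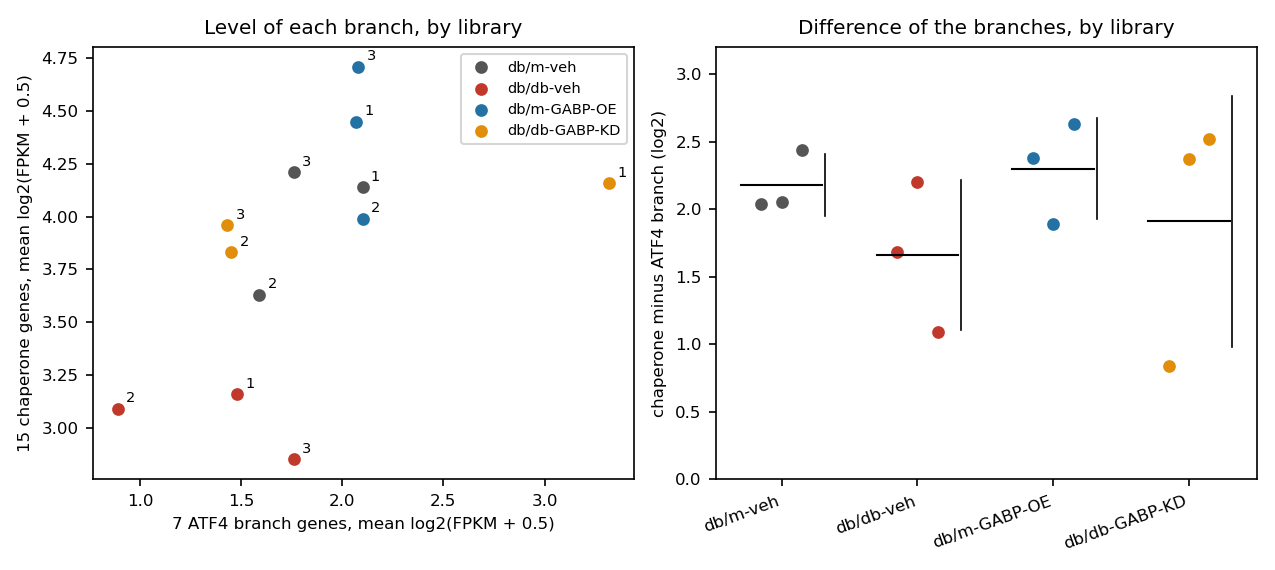
Left, mean log2(FPKM + 0.5) of the 15 chaperone genes (vertical axis) against that of the 7 ATF4 branch genes (horizontal axis), 1 numbered point per library, as deposited. Right, the chaperone level minus the ATF4 branch level in each library (log2, axis from 0), with group means and 1 SD. The db/db-veh points are the lowest 3 in chaperone level (2.85 to 3.16), and db/db-GABP-KD 1 is far to the right in ATF4 branch level (3.32).

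The chaperones with and without the sequence motif are set side by side as a description. In diabetic against lean kidney the 7 chaperones with an ER stress response element in the window had a median log2 fold change of -0.83, with 3 of 7 lower without overlap, and the 6 with a promoter entry but no match had -0.87, with 5 of 6, beside 14.4% of all genes. After scaling the medians were -0.47 and -0.51, with 2 of 7 and 2 of 6, beside 9.03%, and no difference between the 2 sets was tested. In the libraries labelled GABP-KD the medians were 0.81 and 1.02, and with GABP overexpression 0.32 and 0.48.

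Genes of the same pathways outside the 32 were counted from lists of 6 further functions, and none passed a pairwise test. In diabetic against lean kidney, 3 of 20 other folding genes, 2 of 16 other degradation genes, 6 of 21 other translocation and glycosylation genes, 1 of 11 other sensors and factors, 4 of 27 other ATF4 targets and 8 of 12 heat shock genes were lower at an unadjusted p under 0.05, and none was higher. Of all genes tested, 10.7% were lower at that level. The median log2 fold changes were -0.40, -0.53, -0.57, -0.44, -0.33 and -1.28, beside -0.24 over all genes. After scaling they were -0.06, -0.18, -0.30, -0.14, -0.05 and -0.95, beside 0.01.

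The folding genes with the smallest p were Fkbp2, a prolyl isomerase (log2 fold change -1.59), and Dnajc1 (-0.69), and of degradation Selenok (-1.38) and Edem2 (-0.92). Of translocation they were Srprb, a receptor subunit for the signal recognition particle (-1.27), and Ssr2 (-1.39), of the factors Creb3l2 (-0.75) and Atf6b (-0.74), and of the ATF4 targets Atf5 (-1.0) and Wars (-0.75). Of the 6 lists, that of heat shock genes, which also holds mitochondrial chaperonins, had the lowest median. Hspa8, the constitutive cytosolic HSP70, had a mean FPKM of 64.4 ± 21.9 in db/db-veh and 234.2 ± 106.6 in db/m-veh (log2 fold change -1.78), and Hspe1, a mitochondrial chaperonin subunit, had 8.02 ± 1.44 and 21.0 ± 1.52 (-1.35). Over the 4 groups 7 of the 12 heat shock genes passed the F test as deposited and 0 after scaling, beside 7.42% and 2.09% of all genes.

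With GABP overexpression the same lists had medians of 0.53, 0.44, 0.54, 0.41, 0.33 and 0.73, beside 0.38 over all genes. After scaling they were 0.17, 0.06, 0.14, 0.01, 0.04 and 0.30, beside 0.04. Of the 12 heat shock genes 10 lay above the median of all genes, and 1 had an unadjusted p under 0.05. The genes with the smallest p were Txndc5 (log2 fold change 0.86) and Sil1 (0.72) of folding, Edem3 (0.66) and Ube2j1 (0.74) of degradation, Stt3a (0.57) and Stt3b (0.65) of glycosylation, and Creb3l1 (0.92) and Eif2ak2 (0.51) of the factors. Of the ATF4 targets they were Nupr1, a stress-induced chromatin protein (1.54), and Pck2 (0.89), and of heat shock Dnaja1 (0.81) and Hspb1 (1.31). Nupr1 had 21.9 ± 10.3 FPKM against 6.75 ± 0.179 in db/m-veh.

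In the libraries labelled GABP-KD the medians were 0.54, 0.62, 0.81, 0.50, 0.82 and 0.94, beside 0.42. After scaling they were 0.07, 0.09, 0.26, 0.02, 0.33 and 0.39, beside 0.00. As deposited, 2 of 20, 1 of 16, 11 of 21, 3 of 11, 9 of 27 and 6 of 12 were higher at an unadjusted p under 0.05. None was lower, and 13.7% of all genes were higher at that level. The genes with the smallest p were Mogs (log2 fold change 0.76) and Sil1 (0.69), Nploc4 (0.89) and Derl2 (0.63), Spcs1 (1.39) and Srprb (1.18), Eif2s1 (1.03) and Creb3 (1.02), Nupr1 (1.49) and Atf5 (1.22), and Dnajb1 (1.40) and Hspa8 (1.47). Eif2s1 encodes the translation factor that PERK phosphorylates, and it had 2.76 ± 0.945 FPKM against 1.06 ± 0.222. After scaling Spcs1, Srprb, Eif2s1, Nupr1, Dnajb1 and Hspa8 remained without overlap, beside 4.63% of all genes higher without overlap. They were named for the smallest p in this same comparison, so their separation was partly selected for.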

How the data were processed

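Poly(A) RNA of 12 mouse kidney libraries was read from both ends on Illumina instruments, per the labels' protocols. The authors deposited 1 table of FPKM values, 1 row per gene and 1 column per library. The submitters' processing notes list HTSeq, without a version, and the build GRCm39. Aligner, annotation and strandedness were not given in the sources used here. GENCODE M21 (GRCm38) exon lengths turned 98.0% to 98.2% of the values above 0 per library into whole fragments (tolerance 0.05), so coordinates are given in GRCm38. Of the 32 genes, 10 have exons that overlap another gene's, and their reads may not be separable. Besides Manf and Ddit3, exons of Pdia3, Pdia6, Ppp1r15a and Syvn1 overlap genes that have deposited values. Those of Hsp90b1, Pdia4, Dnajb9 and Eif2ak3 overlap only genes without. Ddit3 had 2 identifiers, and the longer model was used.

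limma 3.58.1 in R 4.3.3 was run on log2(FPKM + 0.5) over the 12897 genes that reached FPKM 0.3 in 3 or more libraries. The fit had 1 mean per group, a variance trend and no block, and p-values were two-sided, adjusted by Benjamini-Hochberg over all genes tested, with a threshold of 0.05. Fold changes on this scale understate changes of low genes. The moderated F test covered any difference among the 4 groups. Median of ratios factors came from 5884 genes. The members and lists were chosen with earlier results of these data known. By rule, all 32 genes are named with levels, and statistics are printed for genes that passed, the 8 with the smallest unadjusted p per comparison, and Hspa5, Xbp1, Atf4 and Ddit3. From each other pathway list the 2 genes with the smallest unadjusted p are named, if the higher group averaged FPKM 1 or more. Cell markers were lists for proximal tubule, macrophage, plasma and B cells, adipose, red blood cells and pancreas or salivary gland. The fit was tested on simulated data. Python 3.11.15 with pandas 2.3.3, numpy 2.4.6 and matplotlib 3.10.9 did the rest. Alternatives changed the pseudocount (0.1 and 1), the filter (none, or FPKM 1), the scaling (median of ratios, or an equal nuclear sum) and the trend. Others used library weights, a block for the replicate number, voom on recovered fragments, pairs of groups alone, or left out each library.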

Additional observations from a re-analysis of the deposited data

How the results depend on the processing

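No call was made for any of the 32 genes in a pairwise comparison, and this held under most alternatives. Of 791 log2 fold changes of named genes under alternatives, 765 kept their sign and their side of the threshold, 14 passed it and 12 changed sign. Library weights, which gave low weight to discordant libraries, called 642, 2757, 158 and 5656 genes (diabetes, overexpression, libraries labelled GABP-KD, and F test) and 8, 3, 1 and 19 of the 32. Fits of 2 groups called 19, 590 and 0 genes and, of the 32, 1 (Sdf2l1, in diabetes). Median of ratios scaling called 22, 27, 5 and 269 genes and 0 of the 32. An equal sum of nuclear FPKM called 35, 15, 6 and 201 genes and 0 of the 32. Scaling without db/db-GABP-KD 1, added after seeing the data, called 52, 77, 11 and 451 genes. With no trend the F test called 7 of the 32, beside 6.78% of all genes, and the overexpression comparison called 123 genes. No filter gave 2 genes in diabetes and 1 in the libraries labelled GABP-KD, a pseudocount of 0.1 gave 62 and a filter of FPKM 1 gave 159 in overexpression, and voom on recovered fragments gave 5 and 65 in the first comparisons.

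Leaving out each library in turn gave 2 to 48, 39 to 559, 0 to 4 and 280 to 2271 genes, and of the 32 it gave 0 to 1 in diabetes and 1 to 11 in the F test, the upper ends all without db/db-GABP-KD 1 (a group left with 1 library fewer is assumed to vary like the others). Sign changes in overexpression were -0.11 for Hspa5, -0.01 for Atf4 and -0.10 for Ddit3 after median of ratios scaling, with or without db/db-GABP-KD 1. With an equal nuclear sum they were -0.25, -0.15 and -0.22, with -0.005 for Xbp1, and with library weights -0.08 for Hspa5. In diabetes Atf4 was 0.05 with an equal nuclear sum. The cause of these shifts was not tested.

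No consistent pairing by replicate number was seen. Deviations of libraries with the same number correlated between -0.446 and 0.345, and those with different numbers between -0.358 and 0.511. Deviations from the mean of only 3 libraries cannot exclude shared animals or a shared batch. With the replicate block 13, 277, 0 and 1019 genes passed, and 3 of the 32 in the F test. The depth of 1.08 to 4.39 M nuclear fragments limits Chac1, Trib3, Asns and Sdf2l1, with 0 to 46 fragments per library for the first 3.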
